A study of Homo sapiens with 12 samples.

Results

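The immunoproteasome and the peptide loading machinery of MHC class I were measured as the transcripts of 10 genes. Those are PSMB8, PSMB9, PSMB10, PSME1, PSME2, TAP1, TAP2, TAPBP, B2M and HLA-E, named as a functional group, and every probe set annotated to 1 of these symbols alone was taken. The result was 15 probe sets of 9 genes, among 22215 probe sets and 11963 genes on the array. PSME2 gave no value because its probe set is annotated to 2 genes. HLA-E and TAP2 had 3 probe sets each, B2M and TAPBP had 2 each, and the other 5 genes had 1 each.

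The cells were of the MDA-MB-231 line, established from a human triple-negative breast cancer and mesenchymal in form, transduced with lentiviral particles that carried a short hairpin RNA (shRNA). There were 4 groups of 3 arrays: HDAC5 shRNA with a scramble shRNA set, and LSD1 shRNA with a scramble set whose titles carry an LSD1 tag. LSD1 is the lysine demethylase encoded by KDM1A, and HDAC5 belongs to the class IIa deacetylases. The untagged scramble set was taken as that of the HDAC5 experiment, since the other set is tagged for LSD1 and the series design names a scramble set directly before each shRNA. All 4 groups share the cell line and a lentiviral shRNA. The labels call the 3 arrays of a group biological replicates without saying whether cultures, transductions or days differed, so the p-values measure the spread between these samples. The sources used here give neither the hairpin sequences nor whether cells were selected or cloned.

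The proteasome is the protease complex of the cytosol and nucleus that cuts tagged proteins into peptides. The catalytic subunits of its core in most cells are encoded by PSMB6, PSMB7 and PSMB5. Interferon-exposed cells and lymphocytes make PSMB9, PSMB10 and PSMB8 in their place, which gives the immunoproteasome. PSME1 and PSME2 form an activator cap on the core. Peptides are moved into the endoplasmic reticulum by the transporter of TAP1 and TAP2. There TAPBP (tapasin) bridges the transporter to class I molecules, each made of a heavy chain and beta-2 microglobulin, the product of B2M. HLA-E is a class I heavy chain that presents leader peptides of other class I proteins to natural killer cell receptors.

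PSMB8, PSMB9, TAP1 and TAP2 lie together in the class II region of the MHC on chromosome 6. TAPBP and HLA-E are elsewhere on chromosome 6, while PSME1 is on chromosome 14, B2M on chromosome 15 and PSMB10 on chromosome 16. PSMB9 and TAP1 are transcribed away from each other, and their RefSeq start sites were 488 bases apart. Promoter windows of 300 bases, from 250 before to 50 after a start site, were read from RefSeq (GRCh38.p14), which gave 11 windows for 9 members, PSME2 included and HLA-E without one. The PSMB9 and TAP1 windows that face each other are shown because these neighbours changed in the same direction with HDAC5 shRNA, PSMB8 because it lies beside them, and PSMB10 because it moved against them. Each is written in the gene's own direction. Capitals mark the core of the interferon-stimulated response element (GAAA, any 2 bases, GAAA), a STAT element (TTCNNNGAA) and GC boxes (GGGCGG), each on either strand.
PSMB9, chr6:32853942-32854241, plus strand: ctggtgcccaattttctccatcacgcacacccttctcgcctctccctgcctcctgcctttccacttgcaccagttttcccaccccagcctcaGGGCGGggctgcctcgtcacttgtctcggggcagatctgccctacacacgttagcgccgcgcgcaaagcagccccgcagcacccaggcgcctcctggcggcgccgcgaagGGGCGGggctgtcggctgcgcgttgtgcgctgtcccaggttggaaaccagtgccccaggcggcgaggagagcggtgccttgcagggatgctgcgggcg
TAP1, chr6:32853655-32853954, minus strand: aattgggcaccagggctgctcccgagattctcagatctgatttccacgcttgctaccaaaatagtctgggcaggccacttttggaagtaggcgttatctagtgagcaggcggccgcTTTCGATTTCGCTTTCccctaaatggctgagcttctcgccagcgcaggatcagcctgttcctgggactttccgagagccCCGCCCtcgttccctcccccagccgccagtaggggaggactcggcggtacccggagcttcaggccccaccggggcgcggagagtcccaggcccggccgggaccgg
PSMB8, chr6:32843998-32844297, minus strand: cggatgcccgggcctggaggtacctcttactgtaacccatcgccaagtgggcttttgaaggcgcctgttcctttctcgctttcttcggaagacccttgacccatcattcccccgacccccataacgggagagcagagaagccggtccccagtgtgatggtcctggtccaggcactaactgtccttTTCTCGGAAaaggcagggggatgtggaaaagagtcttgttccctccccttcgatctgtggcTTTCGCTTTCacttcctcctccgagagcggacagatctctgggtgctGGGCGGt
PSMB10, chr16:67936801-67937100, minus strand: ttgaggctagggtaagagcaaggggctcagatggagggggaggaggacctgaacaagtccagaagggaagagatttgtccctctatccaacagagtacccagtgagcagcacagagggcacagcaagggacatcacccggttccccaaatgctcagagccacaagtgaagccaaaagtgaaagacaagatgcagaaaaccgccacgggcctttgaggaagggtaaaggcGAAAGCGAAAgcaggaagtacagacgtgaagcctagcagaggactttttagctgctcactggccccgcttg

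The interferon-stimulated element core was found in windows of 8 of the 9 member genes, against 3.57% of all 35116 windows of the same length. PSMB9 was the member without a match in its own window. The TAP1 window held 2 overlapping matches between positions -134 and -119 from the TAP1 start, which are positions -354 to -369 from the PSMB9 start and outside the PSMB9 window. In PSMB8 the match ran across the start site of the window shown here, and in PSMB10 it lay at positions -21 to -12. The STAT element was found in windows of 2 member genes, PSMB8 and TAP1 (in a further TAP1 window that is not printed), against 7.66% of all windows. GC boxes, which 45% of all windows hold, were in windows of 7 member genes, and a loose NF-kB pattern (GGG, any 5 bases, CC), which 58.7% of all windows hold, in those of 6. The letters were searched on both strands and matches may overlap. A match describes the sequence and is not a measured binding site.

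**Figure D1:**
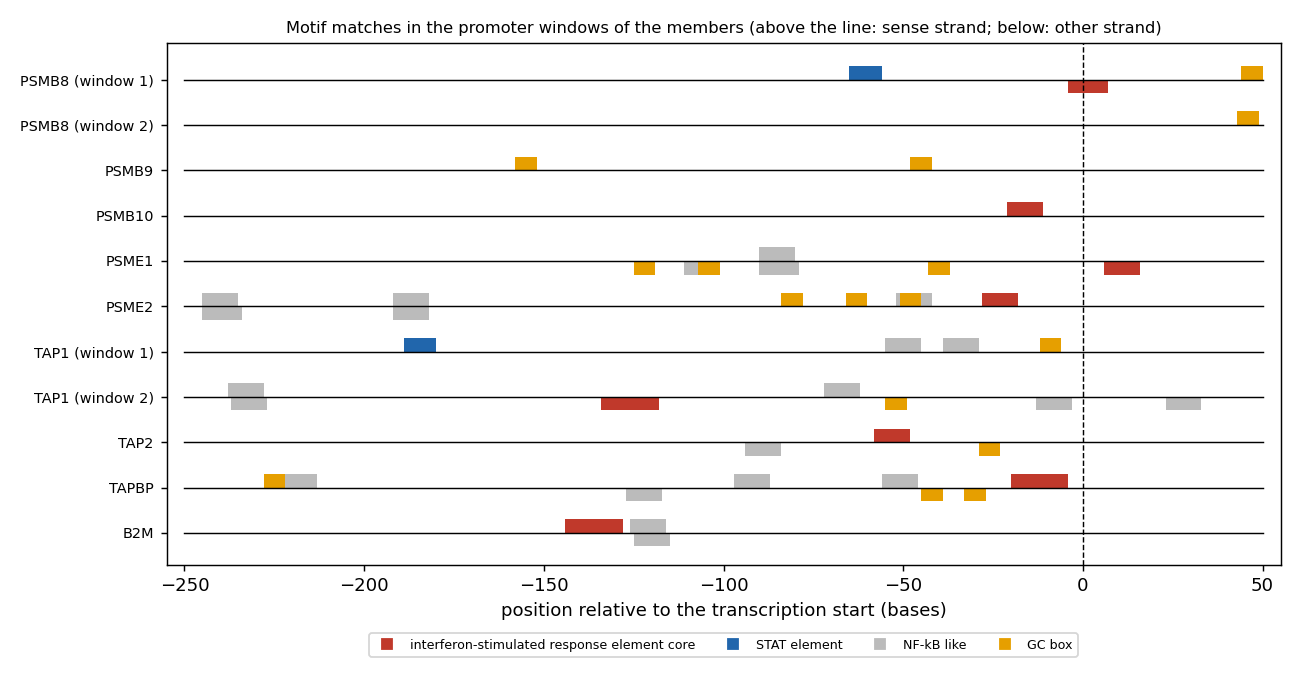
Motif matches in the 11 promoter windows of the members, against position in bases from the transcription start (dashed line), with sense-strand matches above each line and the other strand below. Red blocks, the interferon-stimulated element core, appear in windows of 8 of 9 genes, and PSMB9 has orange GC boxes alone.

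The targeted genes were lower in the arrays labelled for their shRNA. HDAC5 averaged 6.29 ± 0.18 (log2, SD, n = 3) with HDAC5 shRNA and 7.40 ± 0.17 in its scramble arrays, and KDM1A averaged 6.63 ± 0.17 with LSD1 shRNA and 9.72 ± 0.09 in its scramble arrays. Array medians were 6.59 to 6.65 in the HDAC5 experiment and 7.05 to 7.15 in the LSD1 experiment, so levels are compared within an experiment. The pairwise correlation of arrays within a group, over probe sets, was at least 0.998 in the HDAC5 experiment and 0.991 to 0.998 in the LSD1 experiment. The median SD of a probe set was 0.07 in each group of the HDAC5 experiment, against 0.13 with LSD1 shRNA and 0.11 in its scramble arrays, so the HDAC5 experiment could call smaller differences. The mean of 3 genes known to be high in this line (VIM, CD44 and CAV1) was 12.37 to 13.04 over the arrays. With HDAC5 shRNA, CAV1 and VIM rose by 0.40 and 0.12, and none of the 3 was called with LSD1 shRNA. Of 4 genes known to be low in it, the hormone receptor gene PGR averaged 2.70 to 2.84 in the 4 groups, below the lower quartile of every array. CDH1, the epithelial cadherin, was called lower with HDAC5 shRNA (-0.30), but it was below the lower quartile on all arrays of that experiment. With LSD1 shRNA CDH1 rose (2.22) above the lower quartile, against scramble arrays that were all below it, so the size of this change is uncertain. The other 2 genes were not at the floor. EPCAM averaged 7.21 to 8.72 in the 4 groups, above the array medians, and rose with HDAC5 shRNA (0.67). ESR1, also a hormone receptor gene, averaged 5.59 to 6.42, above the lower quartile on every array, and was not called.

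With HDAC5 shRNA, most of the peptide loading genes fell by modest amounts, HLA-E the most, while PSMB10 and TAP2 rose. At a limma p under 0.05 after Benjamini-Hochberg adjustment over all 22215 probe sets, 9 of the 15 member probe sets fell, 2 rose and 4 did not pass. The median change of the 15 was -0.15 (log2), and that of all probe sets was -0.01. In this comparison 38.2% of all probe sets were called, 19.2% lower and 19% higher, so being called was common in this comparison. In bulk RNA, fewer cells that express a gene and less RNA per cell cannot be told apart. By gene, 6 of 9 had a probe set that fell and 2 had one that rose, and PSMB8 had none called. The groups did not overlap for 12 of the 15, 8 with HDAC5 shRNA lower and 4 with it higher, against 46% of all probe sets (23.5% lower, 22.5% higher).

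The catalytic subunits of the immunoproteasome went different ways with HDAC5 shRNA. PSMB9, the subunit that replaces PSMB6, had log2 values of 7.07, 7.04 and 7.20 on HDAC5 shRNA arrays 1, 2 and 3, against 7.58, 7.43 and 7.32 on scramble arrays 1, 2 and 3. All 3 shRNA arrays lay below all scramble arrays, and the change was -0.34 (SE 0.08, limma adjusted p = 0.00751). PSMB10, which replaces PSMB7, had 8.31, 8.20 and 8.35 with HDAC5 shRNA, against 7.87, 7.81 and 7.68 with scramble. Its groups did not overlap either, and it rose by 0.50 (SE 0.07, adjusted p = 0.000292), or 1.42-fold. PSMB8, which replaces PSMB5, had 9.09, 8.95 and 9.09 with HDAC5 shRNA and 9.19, 9.17 and 9.01 with scramble. Those groups overlapped, and the difference of -0.08 (95% confidence interval -0.23 to 0.07) did not pass.

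PSME1, the activator subunit, had 11.37, 11.37 and 11.45 with HDAC5 shRNA, against 11.73, 11.75 and 11.68 with scramble. It fell by 0.32 (SE 0.04, adjusted p = 0.000109) with no overlap between groups.

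Of the transporter genes, TAP1 fell and TAP2 rose with HDAC5 shRNA. TAP1 had 8.17, 8.23 and 8.33 with HDAC5 shRNA, against 8.66, 8.74 and 8.45 with scramble, a change of -0.37 (SE 0.08, adjusted p = 0.00496). The brightest TAP2 probe set (204769_s_at) had 8.74, 8.53 and 8.45 with HDAC5 shRNA, against 8.19, 8.15 and 8.21 with scramble, and rose by 0.39 (SE 0.07, adjusted p = 0.00253). The groups of both genes were separate, in opposite directions. Another TAP2 probe set (204770_at) differed by 0.20 (adjusted p = 0.0981), and the third (208428_at) by 0.14, with all 6 arrays below the lower quartile of their array, where background limits the signal.

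TAPBP had 8.77, 8.83 and 8.94 with HDAC5 shRNA, against 9.28, 9.32 and 9.12 with scramble, in its brighter probe set. It fell by 0.39 (SE 0.07, adjusted p = 0.00143), and the groups did not overlap. The dimmer TAPBP probe set, at 4.75 ± 0.17 with HDAC5 shRNA and 4.87 ± 0.02 with scramble (SD, n = 3), did not pass. B2M, the light chain gene, was bright on all arrays and changed little. Its probe set 216231_s_at had 12.63, 12.63 and 12.64 with HDAC5 shRNA, against 12.81, 12.80 and 12.75 with scramble, a change of -0.15 (SE 0.03, adjusted p = 0.00138). The other B2M probe set changed by -0.14, its groups overlapped, and its call at an adjusted p of 0.0499789 was lost in 10 of 14 alternatives.

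HLA-E had the largest decrease among the members. Its probe set 200904_at had 7.90, 8.07 and 7.98 with HDAC5 shRNA, against 9.02, 9.08 and 8.86 with scramble. The shRNA arrays sat well below the scramble arrays, and the change was -1.003 (SE 0.07, adjusted p = 5.12e-06), or 2.00-fold lower. The 2 further HLA-E probe sets, whose _x_at names mark probes that can match related transcripts, fell by 0.62 (SE 0.07) and 0.52 (SE 0.07), each with no overlap between groups.

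**Figure D2:**
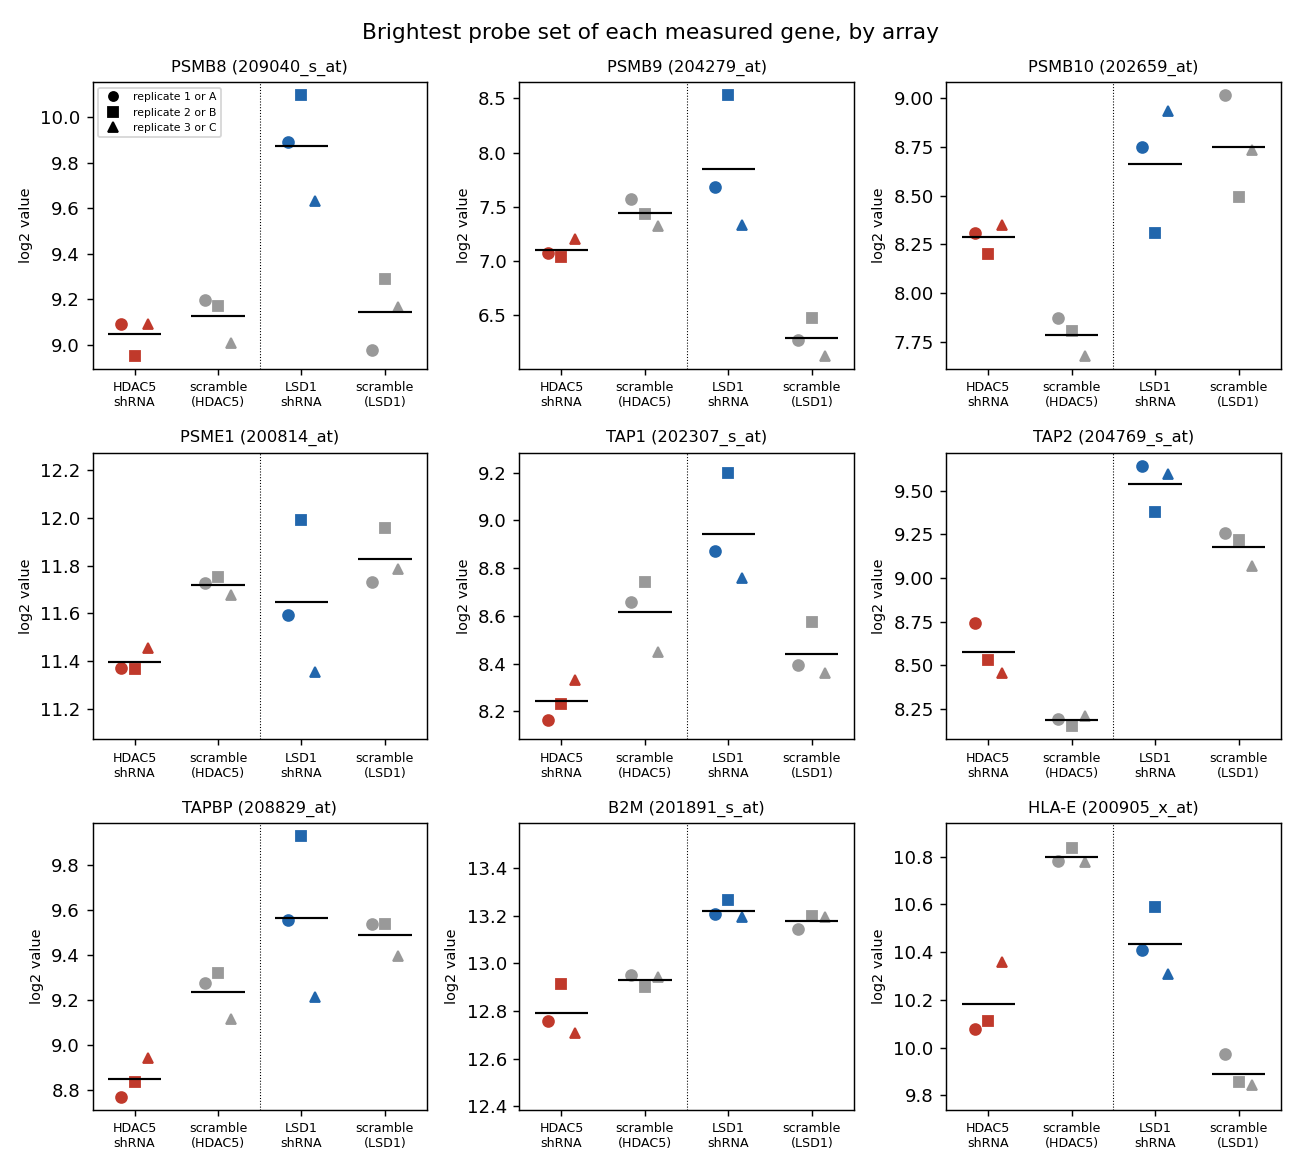
Log2 values of the brightest probe set of each of the 9 measured genes on the 12 arrays, with a separate axis for each gene; bars are group means of 3 arrays and the dotted line parts the experiments. PSMB9 ran from 7.33 to 8.53 on LSD1 shRNA arrays, above all its scramble arrays, and HLA-E was lower on every HDAC5 shRNA array and higher on every LSD1 shRNA array than on the scramble arrays beside it.

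With LSD1 shRNA, PSMB9, PSMB8 and HLA-E rose. Of the 15 member probe sets, 3 were called higher and none lower by limma, where 3.81% of all probe sets were called, 2.11% higher and 1.7% lower. Without adjustment, 8 had a p under 0.05, but the share of all probe sets at that threshold was not computed. The groups did not overlap, with LSD1 shRNA higher, for 8 of the 15, and 0 were separate the other way, against 24.5% of all probe sets (12.2% higher, 12.3% lower). The median change of the 15 was 0.36 and that of all probe sets -0.0013. On each of the 3 LSD1 shRNA arrays, 12 of the 15 were above the scramble mean, and the mean deviation was 0.38, 0.46 and 0.24 on arrays 1, 2 and 3. Over all probe sets the mean deviation was 0.013, 0.020 and 0.012, and the share above the scramble mean was not computed.

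PSMB9 had 7.69, 8.53 and 7.33 on LSD1 shRNA arrays 1, 2 and 3, against 6.27, 6.48 and 6.12 on arrays A, B and C of its scramble set. The lowest shRNA array was above the highest scramble array, and the rise was 1.56 (SE 0.29, adjusted p = 0.0377), or 2.94-fold. PSMB8 had 9.89, 10.10 and 9.63 with LSD1 shRNA, against 8.98, 9.29 and 9.16 with scramble. Its groups were separate too, with a rise of 0.73 (SE 0.15, adjusted p = 0.0461), or 1.66-fold. PSMB10 had 8.75, 8.31 and 8.93 with LSD1 shRNA and 9.01, 8.49 and 8.73 with scramble. These overlapped, and the difference of -0.08 (95% confidence interval -0.56 to 0.39) did not pass.

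HLA-E probe set 200905_x_at had 10.41, 10.59 and 10.31 with LSD1 shRNA, against 9.97, 9.86 and 9.84 with scramble, and rose by 0.54 (SE 0.10, adjusted p = 0.0366). Probe set 200904_at, which is not of the _x_at kind, had 8.42, 8.92 and 8.18 with LSD1 shRNA, against 7.65, 7.94 and 7.68 with scramble. Its groups did not overlap, but the difference of 0.75 (SE 0.20, adjusted p = 0.0923) did not pass, nor did that of 217456_x_at at 0.37 (adjusted p = 0.0936).

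TAP1 had 8.87, 9.20 and 8.76 with LSD1 shRNA, against 8.39, 8.57 and 8.36 with scramble, a difference of 0.50 (SE 0.14, adjusted p = 0.105). The brightest TAP2 probe set had 9.64, 9.38 and 9.59 with LSD1 shRNA, against 9.26, 9.22 and 9.07 with scramble, a difference of 0.36 (SE 0.11, adjusted p = 0.132). All LSD1 shRNA arrays were above all scramble arrays for both transporter genes, and neither passed the threshold. The further TAP2 probe sets differed by 0.21 and 0.46 (the second from 208428_at, which was below the lower quartile on all 3 scramble arrays).

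PSME1 had 11.59, 11.99 and 11.36 with LSD1 shRNA and 11.73, 11.96 and 11.79 with scramble, a difference of -0.18 (95% confidence interval -0.55 to 0.20). TAPBP had 9.56, 9.93 and 9.21 with LSD1 shRNA and 9.54, 9.54 and 9.40 with scramble, a difference of 0.08 (-0.35 to 0.50). The groups of both genes overlapped. The dimmer TAPBP probe set was below the lower quartile on all 6 arrays. B2M differed by 0.04 and 0.10 in its 2 probe sets, and neither passed.

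Of the 6 fits with 1 array fewer, the call of PSMB8 was lost in 6 and those of PSMB9 and HLA-E 200905_x_at in 5 each. The HLA-E call was also lost with the mean of the probe sets of each gene (0.55, adjusted p = 0.0521). Without scramble A, B or C, or without LSD1 shRNA array 1 or 3, none of the 15 was called by limma, although the rise of PSMB9 stayed between 1.22 and 1.82 over the fits that left out 1 array. Without LSD1 shRNA array 2, which had the highest PSMB9 value, 3 were called again: PSMB9, HLA-E 200905_x_at and the dim TAP2 probe set 208428_at in place of PSMB8. In 1 fit of all 12 arrays, which shares the spread of both experiments, 7 were called higher with LSD1 shRNA, adding TAP1, TAP2 204769_s_at and both remaining HLA-E probe sets, and 5 were called lower with HDAC5 shRNA, where PSMB9 (adjusted p = 0.335), PSME1 (0.0739), TAPBP (0.0663) and B2M 201891_s_at (0.0503) did not pass.

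The change with HDAC5 shRNA was then set against the change with LSD1 shRNA, in a contrast over all 12 arrays. This fit took 1 spread per probe set for all 4 groups, although the LSD1 experiment had the larger spread. The SD of PSMB9 was 0.09 with HDAC5 shRNA and 0.13 with its scramble, and 0.62 with LSD1 shRNA and 0.18 with its scramble. The p-values of the contrast are less certain where spreads differ in this way. Each shRNA was measured in its own experiment, so the shRNA target and the experiment cannot be told apart in this contrast. Scramble levels also differed between the experiments, in both directions. PSMB9 averaged 7.44 in the HDAC5-experiment scramble arrays and 6.29 in the LSD1-tagged ones, and TAP2 204769_s_at 8.18 and 9.18. PSMB8, PSMB9, TAP1, HLA-E and B2M 216231_s_at differed between the shRNAs, with HDAC5 shRNA on the lower side. By limma 7 of the 15 probe sets passed in that direction and 0 in the other, where 26.9% of all probe sets passed, 12.7% with HDAC5 shRNA lower and 14.2% with it higher. Without adjustment, 10 had a p under 0.05, and here too the share of all probe sets at that threshold was not computed. The difference was -1.90 for PSMB9 (SE 0.32, adjusted p = 0.00112), -0.81 for PSMB8 (SE 0.17, adjusted p = 0.00365) and -0.87 for TAP1 (SE 0.17, adjusted p = 0.00241). For HLA-E it was -1.75, -1.16 and -0.89 in the 3 probe sets (SE 0.22, 0.13 and 0.12), and for B2M 216231_s_at it was -0.25 (SE 0.04, adjusted p = 0.00137). The brighter B2M probe set, 201891_s_at, did not pass (-0.18, adjusted p = 0.0658). Leaving out any 1 array kept 7 or 8 of the 15 called in this direction. PSMB10 passed on the other side without scramble B (0.71, adjusted p = 0.032) or without LSD1 shRNA array 3 (0.72, adjusted p = 0.0224).

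PSMB9 and HLA-E 200905_x_at were each called lower with HDAC5 shRNA and higher with LSD1 shRNA. That pattern was found in 0.675% of all probe sets, its mirror image in 0.59%, and either in 1.26%. The difference between the shRNAs did not pass for PSMB10 (0.59, 95% confidence interval 0.11 to 1.07, adjusted p = 0.0698), PSME1 (-0.14, -0.52 to 0.23), TAPBP (-0.46, -0.90 to -0.03, adjusted p = 0.114) or TAP2 204769_s_at (0.03, -0.27 to 0.33). For this TAP2 probe set the changes were 0.39 with HDAC5 shRNA, which passed, and 0.36 with LSD1 shRNA, which did not.

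**Figure D3:**
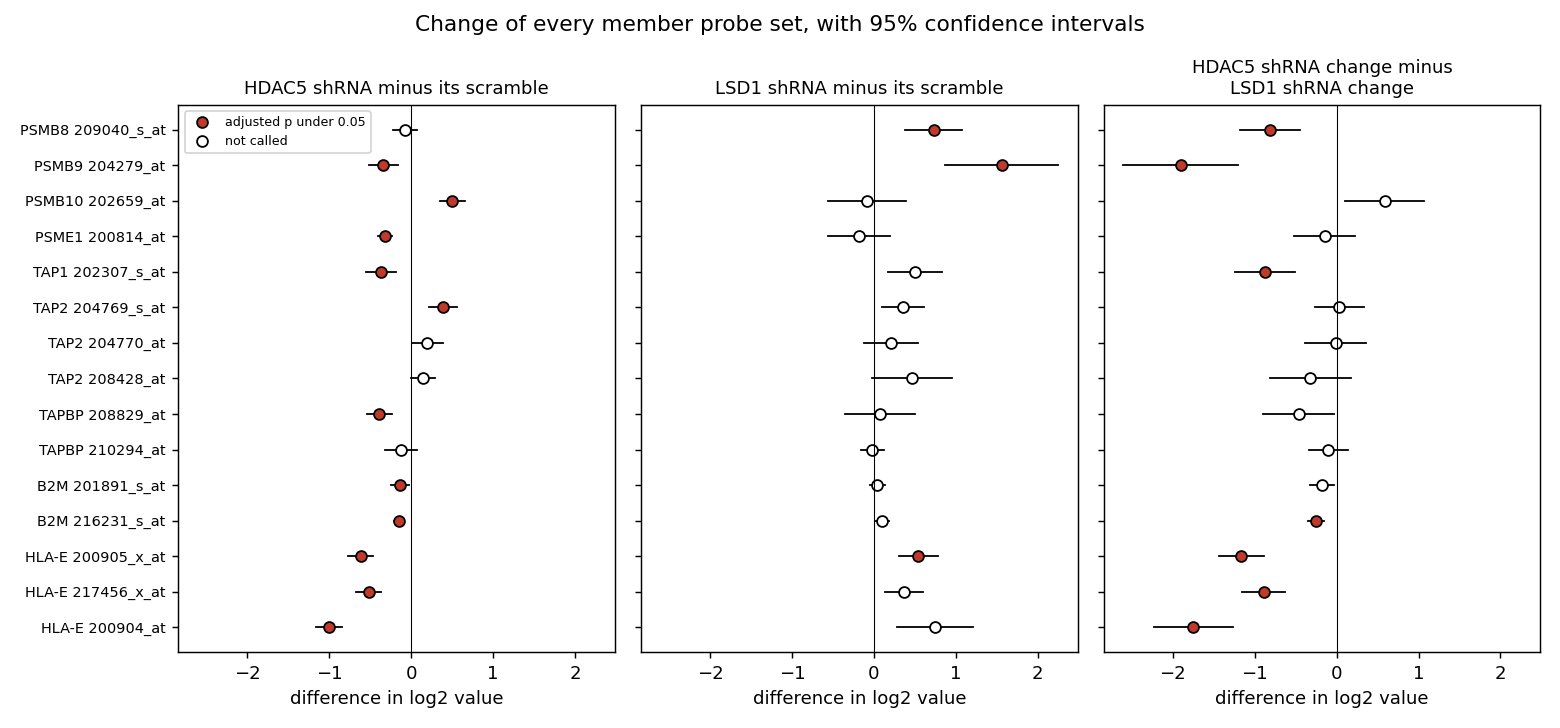
Change of the 15 member probe sets on the log2 scale with HDAC5 shRNA, with LSD1 shRNA, and the difference between these changes; lines are 95% confidence intervals from limma and red points passed the adjusted threshold. HLA-E 200904_at lies at -1.003 with HDAC5 shRNA, PSMB9 at 1.56 with LSD1 shRNA, and no red point in the right panel is above 0.

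The constitutive partners of the immunoproteasome subunits were read beside them. With HDAC5 shRNA, PSMB5, PSMB6 and PSMB7 rose by 0.21, 0.31 and 0.20 (adjusted p = 0.00274, 0.000168 and 0.0041), while PSMB8, PSMB9 and PSMB10 were at -0.08, -0.34 and 0.50. With LSD1 shRNA, PSMB5 differed by -0.04 and PSMB6 by 0.10, neither called, and PSMB7 rose by 0.34 (SE 0.07, adjusted p = 0.0465), beside 0.73, 1.56 and -0.08 for PSMB8, PSMB9 and PSMB10. With each array centred on its median, PSMB7 was not called with LSD1 shRNA. Over all genes 20.7% were called higher with HDAC5 shRNA and 2.65% with LSD1 shRNA. The change of a subunit was not tested against that of its partner.

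**Figure D4:**
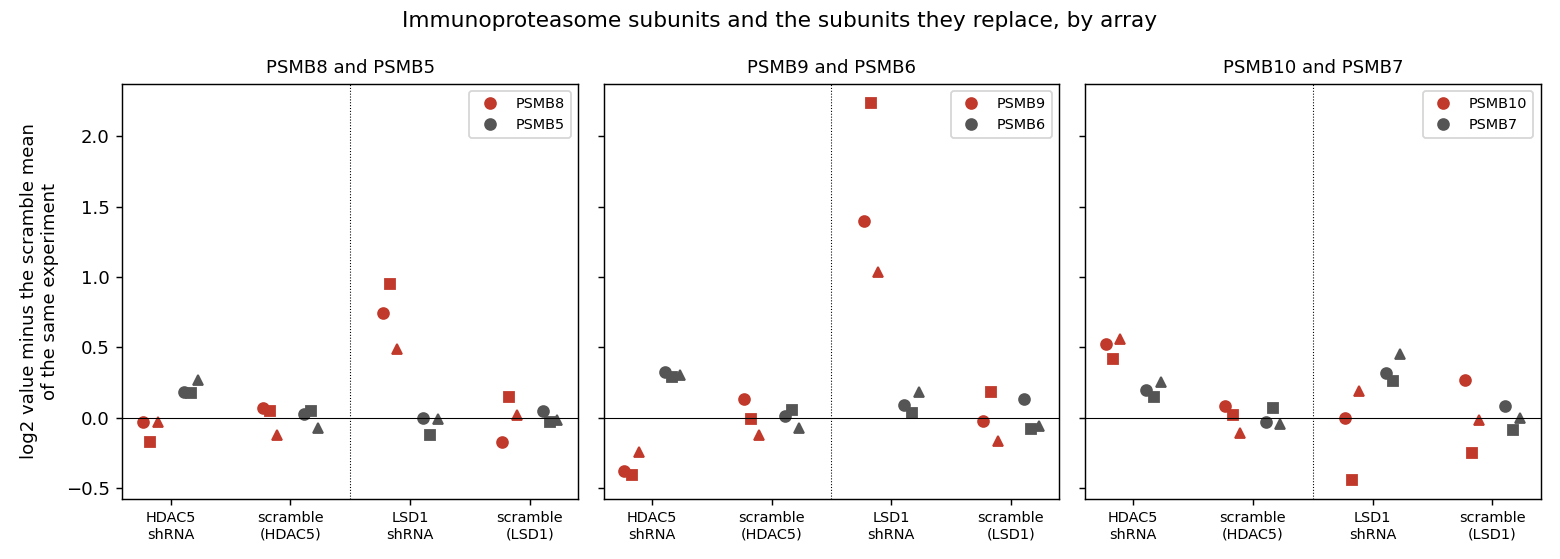
Log2 value minus the scramble mean of the same experiment for each immunoproteasome subunit (red) and the subunit it replaces (grey), by array, with marker shapes for replicates 1 or A, 2 or B and 3 or C. PSMB9 stands above PSMB6 on all LSD1 shRNA arrays and below it on all HDAC5 shRNA arrays.

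Other proteasome genes rose with HDAC5 shRNA. Taking the brightest probe set of each gene, 7 of 10 measured genes of the rest of the core rose and none fell, with a median of 0.19 and the largest change in the core subunit gene PSMB2 (0.55, SE 0.04). Of 24 genes of the regulatory particle, other activators and assembly factors, 17 rose and none fell, with a median of 0.21. They were led by the assembly chaperone gene PSMG1 (0.74, SE 0.05), the ATPase gene PSMC3 (0.61, SE 0.05) and PSME3, an activator of the nuclear proteasome (0.54, SE 0.06). Over all genes 43% were called, 20.7% higher and 22.4% lower, in this comparison, with a median of -0.02. With LSD1 shRNA none of the 10 was called. Of the 24, PSMD5, a regulatory particle chaperone gene, rose (0.40, SE 0.07) and PSMF1, an inhibitor of the proteasome, fell (-0.58, SE 0.09), where 4.45% of genes were called, 2.65% higher and 1.8% lower. With array medians aligned, PSMD5 was not called.

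The heavy chain genes of class I fell with HDAC5 shRNA. All 4 measured were called lower, with a median of -0.59: HLA-B at -0.81 (SE 0.07), HLA-C at -0.69 (SE 0.05), HLA-F at -0.49 and HLA-G at -0.49 (SE 0.05). Over all genes 22.4% were called lower in this comparison and 43% in either direction. All 4 brightest probe sets are of the _x_at kind and can share signal with each other and with HLA-E. With LSD1 shRNA the same 4 differed by 0.03, -0.19, 0.03 and 0.03, and none passed, where 4.45% of all genes did. The difference between the shRNAs passed for HLA-B (-0.84, adjusted p = 0.0301), HLA-F and HLA-G and not for HLA-C (-0.51, adjusted p = 0.211). In that contrast 30.6% of genes passed, 15.4% with HDAC5 shRNA lower and 15.2% with it higher.

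Of 7 measured genes of peptide trimming and other loading factors, the chaperone genes CALR (0.47, SE 0.05) and CANX (0.10, SE 0.03) rose with HDAC5 shRNA and none fell, where 20.7% of all genes were called higher and 43% in either direction. PDIA3, the oxidoreductase of the loading complex, and ERAP1, the trimming peptidase, differed by 0.05 and -0.08 and did not pass. None of the 7 was called with LSD1 shRNA, where 4.45% of all genes were.

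Of 23 measured receptors, kinases and transcription regulators of interferon signalling, 4 rose and 5 fell with HDAC5 shRNA (median -0.02), a share near that of all genes (20.7% higher and 22.4% lower). The interferon-gamma receptor chain gene IFNGR2 was at -0.54 (SE 0.05), the kinase gene JAK1 at -0.51 (SE 0.04) and NFYA, a subunit of a promoter-binding factor, at 0.47 (SE 0.06). IRF1, the interferon-induced activator of PSMB9 and TAP1, averaged 6.70 with HDAC5 shRNA and 6.97 with scramble, a change of -0.27 (SE 0.08, adjusted p = 0.0265). With LSD1 shRNA none of the 23 was called (median -0.07), where 4.45% of all genes were. IRF1 then averaged 7.53 with LSD1 shRNA and 7.32 with scramble (difference 0.22, adjusted p = 0.312). The difference between the shRNAs passed for IRF1 (-0.49, adjusted p = 0.0183). The interferon genes IFNG, IFNB1 and IFNA1 were below the lower quartile in all groups, with none called in either comparison.

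Among 13 class II pathway genes and neighbours of PSMB8 to TAP2, all on chromosome 6 but CD74 and CTSS, HLA-DMA fell (-0.44, SE 0.09) and BRD2, a bromodomain protein gene, rose (0.22, SE 0.06) with HDAC5 shRNA, a smaller share than the 43% of all genes called. None was called with LSD1 shRNA, where 4.45% of all genes were. HLA-DMA averaged 6.57 with LSD1 shRNA and 5.80 with scramble, a difference of 0.77 that did not pass (adjusted p = 0.358). HLA-DMB differed by 0.39 with LSD1 shRNA, without overlap, and did not pass either (adjusted p = 0.218). The difference between the shRNAs passed for HLA-DMB alone of the 13 (-0.51, adjusted p = 0.0417), where 30.6% of all genes passed. With quantile normalization or centred arrays none of the 13 passed there.

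**Figure D5:**
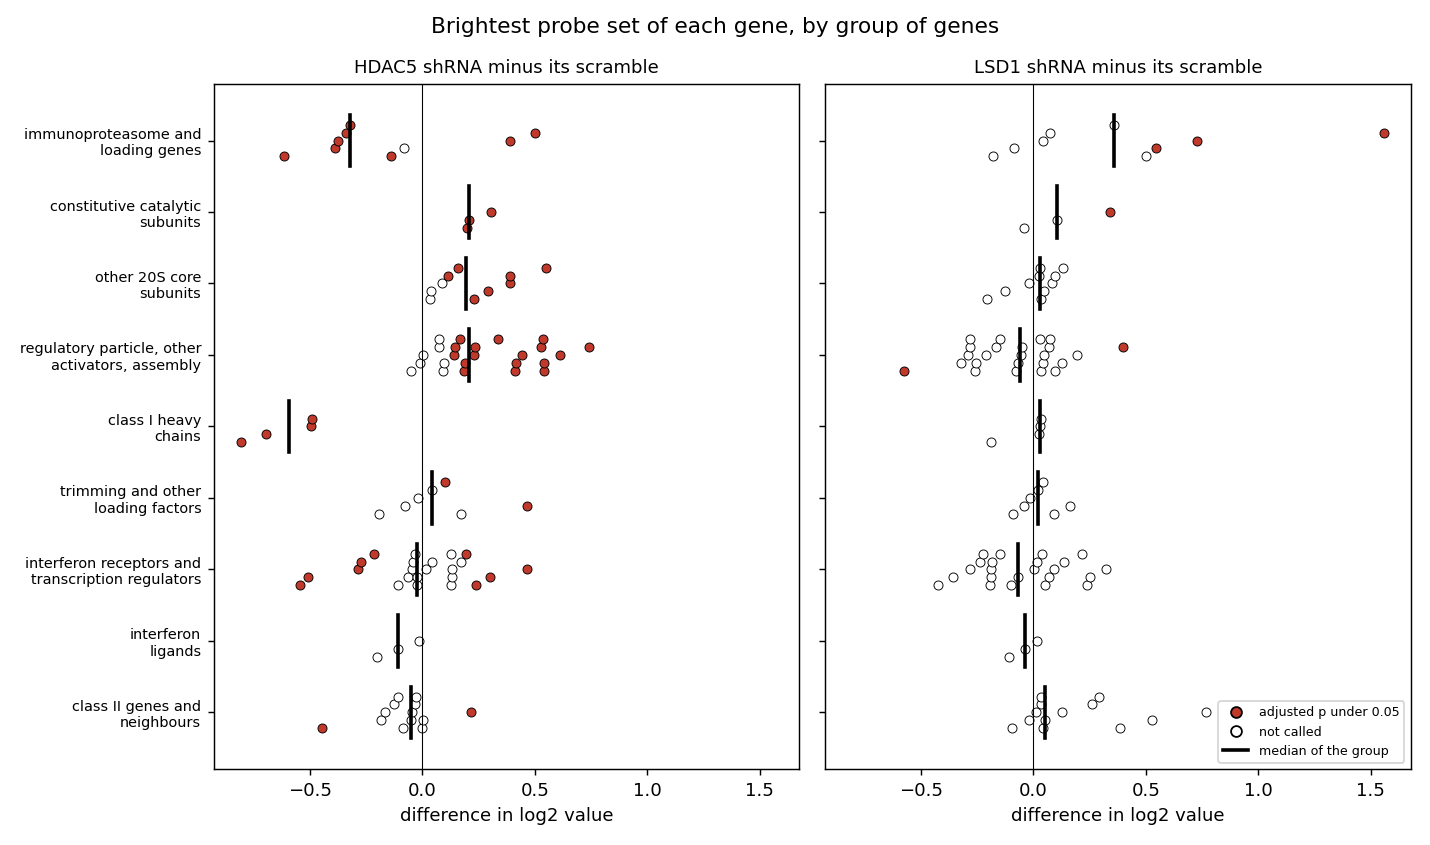
Change on the log2 scale of the brightest probe set of each gene, by group of genes, with HDAC5 shRNA (left) and LSD1 shRNA (right); black bars are group medians and red points passed the adjusted threshold. Proteasome genes other than the immunoproteasome members lie mostly above 0 with HDAC5 shRNA, the class I heavy chains lie at -0.81 to -0.49, and PSMB9 at 1.56 is the farthest point of these 9 groups with LSD1 shRNA. The marker lists are not drawn.

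Markers of other cells and of RNA quality were read on the same arrays. Of 11 measured blood cell markers none was called in either comparison, where 43% of all genes were called with HDAC5 shRNA and 4.45% with LSD1 shRNA. CD3D, a T cell receptor complex gene, had 6.59, 6.95 and 6.77 with LSD1 shRNA, against 6.40, 5.82 and 5.79 with scramble, a difference of 0.77 without overlap that did not pass (adjusted p = 0.075 by limma). The difference between the shRNAs passed for CD3D (-0.92, SE 0.22). The mean log2 level of these 11 was 4.57 to 4.64 with HDAC5 shRNA and 4.64 to 4.67 in its scramble arrays, and 5.10 to 5.16 with LSD1 shRNA and 4.99 to 5.10 in its scramble arrays. The defining leukocyte gene PTPRC averaged 3.53 with HDAC5 shRNA and 3.46 with its scramble, and 3.57 with LSD1 shRNA and 3.54 with its scramble, below the lower quartile on every array. Of 11 fibroblast and endothelial markers, 4 fell with HDAC5 shRNA, led by PECAM1 (-0.62, SE 0.08), where 22.4% of all genes were called lower. With LSD1 shRNA, LUM was called higher (1.54, SE 0.23), where 2.65% of all genes were. LUM, and VWF among the 4, were below the lower quartile on all 12 arrays. Their mean level was 4.93 to 5.01 with HDAC5 shRNA against 5.13 to 5.15 with scramble, and 5.63 to 5.75 with LSD1 shRNA against 5.50 to 5.59 with scramble. The ACTB control probe sets, which compare the 3′ with the 5′ end of the transcript as a sign of RNA integrity, differed by 0.68 ± 0.08 (log2, SD, n = 3) with HDAC5 shRNA and 0.90 ± 0.06 with scramble, and 1.43 ± 0.12 with LSD1 shRNA and 1.30 ± 0.06 with scramble. The part of these shifts in the member results was not tested.

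The 3 other genes whose 12 values, each relative to its scramble mean, lay closest to those of PSMB9 were IGSF1, SETBP1 and PCLO, with a root mean square difference of 0.19, 0.20 and 0.21 (log2). They were at -0.38, -0.53 and -0.36 with HDAC5 shRNA and 1.53, 1.54 and 1.41 with LSD1 shRNA, with SETBP1 below the lower quartile on all 3 LSD1-tagged scramble arrays. Among members PSMB8 lay closest to PSMB9, at 0.47. For HLA-E 200905_x_at the closest were TCTN1 (0.08), GSTA4 (0.09) and SURF1 (0.09), at -0.53, -0.68 and -0.57 with HDAC5 shRNA and 0.47, 0.57 and 0.44 with LSD1 shRNA. Among members TAP1 lay closest to HLA-E, at 0.16. Closeness was chosen from these values and is a description.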

How the data were processed

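RNA was measured on Affymetrix expression arrays, 1 per sample, in 12 samples. The deposited log2 values, 1 per probe set and array, were made by the authors with RMA in the affy package, per the submitters' processing notes. RMA gives arrays 1 distribution, which hides a shift common to most transcripts, and it compresses ratios at low signal. The sources used here name no versions and do not say which arrays shared a run of RMA. All 12 value columns were matched to samples, with 0 left over.

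Of 22277 probe sets, 62 controls were left out. Symbols came from the platform annotation (19064 probe sets with 1 symbol, 1043 with several, 2108 with none) and were updated by gene ID to RefSeq (GRCh38.p14), which matched 19052. No filter on dim probe sets was used. Each shRNA was compared with its own scramble set in a limma 3.58.1 fit (R 4.3.3; lmFit, eBayes with a mean-variance trend) of 6 arrays and all probe sets, with Benjamini-Hochberg adjustment. The difference between changes was a contrast over 12 arrays. SE and 95% intervals are limma's moderated ones. The fits were tested on simulated data. The number of arrays limits the precision, and 3 arrays against 3 cannot give an exact two-sided permutation p under 0.1.

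The members and the 12 gene lists were chosen with earlier results of these data known. Genes named are all members, the targets, the constitutive catalytic subunits, class I heavy chains and main loading factors and regulators, up to 3 called genes per list with the largest change, and the 3 genes closest to PSMB9 and HLA-E. Protein sequences were not used here. Replicate numbers 1 to 3 are shared in the HDAC5 experiment. The labels do not say whether these numbers pair the samples. The deviations from group means correlated at -0.05, -0.21 and -0.14 for same-numbered arrays. Deviations from a mean of 3 arrays depend on each other, so these values cannot decide the pairing. Alternatives covered the probe sets of a gene, dim probe sets, scaling, the variance model, all 12 arrays, a replicate block and leaving out arrays.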

Additional observations from a re-analysis of the deposited data

How the results depend on the processing

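With HDAC5 shRNA, 8489 of 22215 probe sets were called. Of 11963 genes, a smaller number tested, 5319 were called with the brightest probe set and 5130 with the mean of the probe sets. There were 5539 probe sets in 1 fit of all 12 arrays, where 5 member probe sets were lower. Leaving out 1 array gave 7109 to 8088 probe sets, with 2 members higher and 8 to 9 lower. The replicate block gave 7621 probe sets, with 2 members higher and 8 lower. No paired analysis was run in the LSD1 experiment, because its scramble arrays carry letters and its shRNA arrays numbers, which the labels do not match. Scramble B and LSD1 shRNA array 2 each had the highest PSMB9, TAP1 and PSME1 values of their group. For HLA-E 200905_x_at scramble A was the highest of its group and shRNA array 2 of its own. Whether B and 2 are a pair was not tested. With LSD1 shRNA, 847 were called, against 3485 in 1 fit of all 12 arrays (7 members higher) and 112 to 1062 without 1 array (0 to 3 members). Leaving out scramble B and LSD1 shRNA array 2 together gave 91 (0 members). For the difference between the shRNAs, 5973 of 22215 were called, and of 11963 genes 3803 with the brightest probe set (4 members lower) and 3744 with the mean. Leaving out 1 array gave 4846 to 6560, with 0 to 1 member higher, and 1 was higher without scramble B and LSD1 shRNA array 2. Adjusted p with LSD1 shRNA ranged over the alternatives from 0.000743 to 0.171 for PSMB9, 0.00145 to 0.178 for PSMB8 and 0.00149 to 0.169 for HLA-E 200905_x_at, which the mean of probe sets put at 0.0521. The sign turned only in values that were not called. Leaving out 1 array, PSMB10 ranged from -0.22 to 0.094 and TAPBP 208829_at from -0.11 to 0.25 with LSD1 shRNA, and in the difference PSME1 ranged from -0.29 to 0.029, TAP2 204769_s_at from -0.052 to 0.092 and TAP2 204770_at from -0.16 to 0.071. Without scramble B and LSD1 shRNA array 2 together, TAPBP was at -0.083 with LSD1 shRNA, and in the difference TAP2 204769_s_at at -0.066 and 204770_at at 0.027. In the difference TAP2 204769_s_at was at -0.0997 with the mean of probe sets, and 204770_at at 0.049 with quantile normalization and 0.043 with centred arrays. The causes were not tested. Dim probe sets, near the lower quartile of their array, limit TAP2 208428_at and TAPBP 210294_at.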
